A study of Mus musculus with 6 samples.

Results

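The genes described here encode the nuclear subunits of respiratory complexes III, IV and V and cytochrome c, in mouse long-term haematopoietic stem cells (LT-HSCs), the rare marrow cells from which all blood lineages can be rebuilt. They were chosen by symbol: every listed gene whose symbol starts with Uqcr, with Cox and a digit from 4 to 8, or with Atp5, together with Cyc1 and Cycs and without symbols that mark a pseudogene. This gave 39 of the 14986 genes in the table, 9 of complex III, 13 of complex IV, 16 of complex V and cytochrome c itself. Polyadenylated RNA was sequenced in 6 libraries, each from 1500 LT-HSCs sorted out of bone marrow. In 3 the genotype label is wild type, and in the other 3 it is Zcchc8 KO. The gene product ZCCHC8 holds together the complex that directs unstable nuclear RNAs to the exosome for decay, and the question is what its depletion does to gene expression. The labels give no strain, age, sex, allele or Cre driver and do not state that replicates are different animals, so each p-value reflects the spread among these samples alone, which may be technical.

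Complex III, cytochrome bc1, takes electrons from ubiquinol and hands them to cytochrome c while pumping protons across the inner mitochondrial membrane. Complex IV, cytochrome c oxidase, passes those electrons to oxygen and pumps further protons, and complex V, the ATP synthase, lets protons flow back through a rotating ring to make ATP. The catalytic cores of complexes III and IV also contain proteins encoded by mitochondrial DNA. No symbol starting with mt-, the prefix of mitochondrially encoded genes, was listed, so these could not be analysed here. Quiescent LT-HSCs are known for drawing little on respiration and for increasing it when they leave quiescence.

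The values are FPKM, which count the fragments of a gene relative to its exon length and to the mapped reads of the library. The reads behind them came to 18059318 to 18909211 in the wild-type libraries and 18963362 to 25709662 in those labelled KO. Zcchc8 itself was not lower in the libraries labelled KO, at 8.93, 5.24 and 5.16 FPKM in the wild-type libraries and 10.4, 5.54 and 5.92 FPKM in KO (limma adjusted p = 0.935), and a value summed over all exons cannot show whether part of the gene is deleted. KO therefore stands for the label throughout, and every direction below is that of libraries labelled KO. All 16 LT-HSC markers on the list were detected, with summed levels of 554 to 574 FPKM in wild type and 398 to 414 FPKM in KO. Only Hoxb5 was listed at 0 in a library, of the KO group. By value 4 of the 16 were higher in KO, and the median log2 difference was -0.40. For 8 of them all KO libraries lay below all wild-type libraries, where 6.99% of all tested genes did so. None had a limma adjusted p under 0.05, the smallest being 0.059.

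The respiratory genes stood slightly higher in KO as a group by value, and no gene among them passed the test. Of the 38 that could be tested, 29 were higher by value in KO, against 50.2% of the 11837 tested genes. The median difference was 0.18 on the log2(FPKM + 1) scale, where the median of all tested genes was 0.00. The 5139 genes averaging 10 FPKM or more, a class that holds 33 of the 38, had a median difference of 0.03, and 55.1% of them were higher. With limma and Benjamini-Hochberg adjustment over all tested genes, 0 of 38 had an adjusted p under 0.05, and the smallest was 0.285, of Uqcrfs1. Across the transcriptome 27 genes passed, 0.228% of those tested. At an unadjusted limma p under 0.05, 7 respiratory genes were higher, against a background of 4.87%, and 0 were lower, against 4.33%. Limma-voom on reads recovered from FPKM also called 0, with 4 higher at an unadjusted p under 0.05, against 4.38% of all genes in that fit. Limma without a variance trend left none of the 7, against 3.99% of all genes.

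All 3 KO libraries lay above all 3 wild-type libraries for 9 of the 38 genes, where 8.24% of tested genes did so. The reverse held for 0, against a background of 6.99%. The 9 were Uqcrfs1 and Uqcr11 of complex III, Cox4i1, Cox5a, Cox6b1 and Cox8a of complex IV, and Atp5a1, Atp5b and Atp5pb of complex V. With 3 libraries against 3 the exact two-sided permutation test cannot go below p = 0.1, the value of each of the 9. After scaling each library to a fixed total (TPM), 3 members were higher and 0 lower at an unadjusted p under 0.05, and over all genes the split was 472 higher and 641 lower of 12659 tested, against 576 higher and 513 lower of 11837. The filter at 1 was applied to the scaled values there, so the genes tested differ as well. In that fit 7 members had groups apart and higher in KO, against 6.74% of all tested genes.

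**Figure D1:**
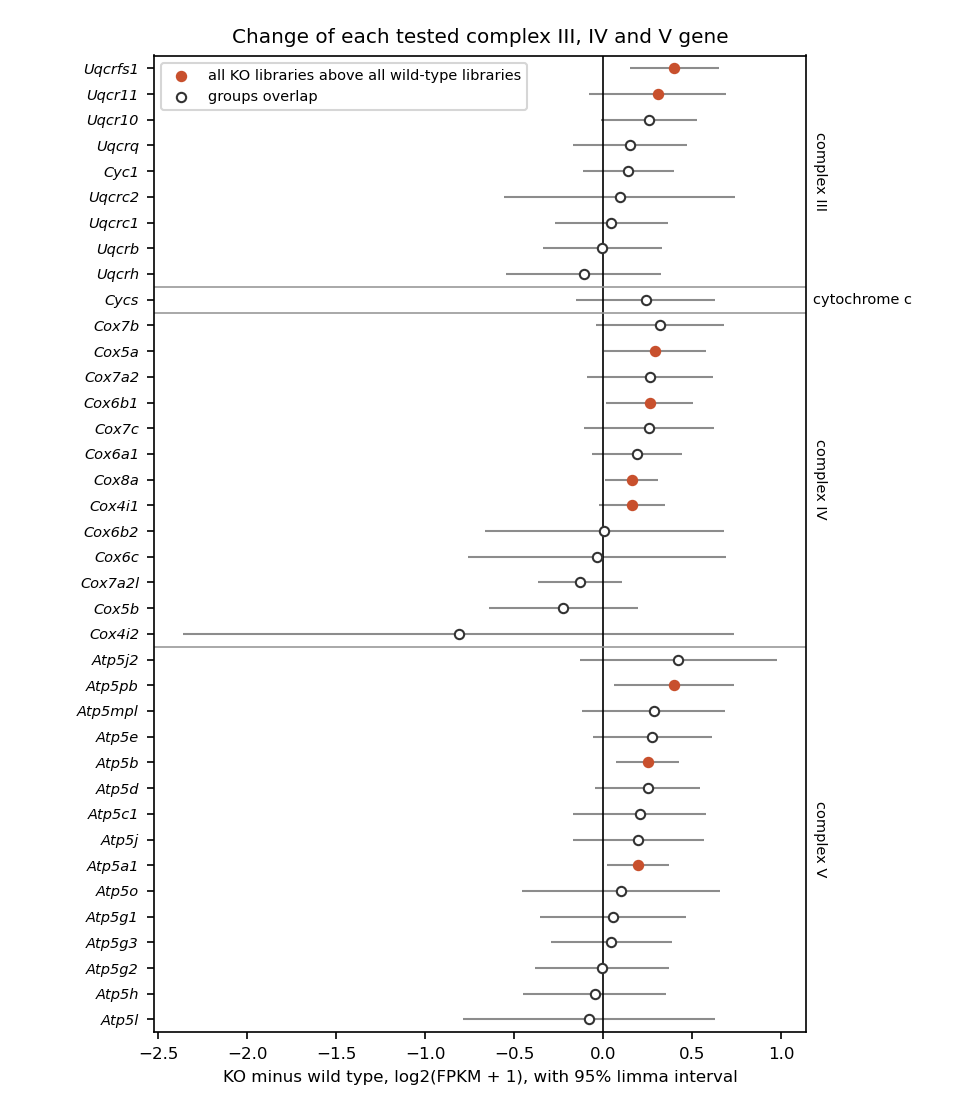
KO minus wild type on the log2(FPKM + 1) scale for the 38 tested genes, grouped by complex and ordered by size, with the 95% interval from limma over 3 libraries a group. Filled points mark the 9 genes whose KO libraries all lie above all wild-type libraries; 29 points lie right of 0, and no gene passed the adjusted test.

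Summed over the 39 genes, the wild-type libraries held 4212, 4308 and 4228 FPKM and the KO libraries 4820, 4786 and 4823 FPKM. The groups did not overlap, and the ratio of their means was 1.13. By complex the ratio was 1.15 for complex III, 1.11 for complex IV and 1.16 for complex V. Leaving out Cox8a, the gene of highest level, gave 1.13. When each gene was set against its own wild-type mean, the median over the 38 genes was 0.18, 0.17 and 0.18 in KO libraries 1 to 3, on the log2(FPKM + 1) scale. The wild-type libraries lay at -0.02, 0.01 and -0.01, near 0 by construction. The same median over all tested genes was 0.00 to 0.03 in the KO libraries.

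**Figure D2:**
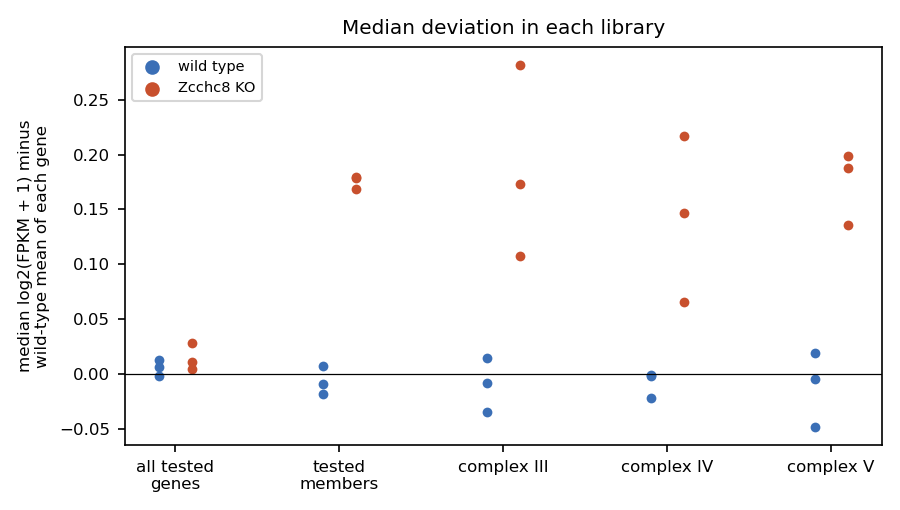
Median deviation from the wild-type mean of each gene, in log2(FPKM + 1), for all tested genes, the 38 tested respiratory genes and each complex; each point is 1 library. The KO libraries lie between 0.17 and 0.18 for the respiratory genes, and between 0.07 and 0.28 for single complexes, while those of all tested genes lie near 0; wild type is near 0 by construction.

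In these bulk libraries fewer cells of a type and less RNA per cell cannot be told apart. Markers of other marrow cells moved between the same groups, and their part in the respiratory values was not tested. Summed erythroid markers, 10 of 12 listed, stood at 119 to 158 FPKM in wild type and 440 to 476 FPKM in KO. Eosinophil markers, 5 of 9 listed, stood at 1.05 to 3.25 FPKM in wild type and 170 to 211 FPKM in KO, and Prg2, Prg3, Epx and Ear6 were each at 0 in at least 1 wild-type library. Neutrophil markers, 11 of 11 listed, ranged from 3065 to 3198 FPKM in wild type and from 3926 to 4345 FPKM in KO. B cell markers, 10 of 11 listed, were at 816 to 928 FPKM in wild type and 108 to 126 FPKM in KO, with Igkc at 0 in some KO library. Igkc made up that difference, with means of 795 and 0.451 FPKM. Of the 7 tested B cell markers, 5 were higher by value in KO, all 5 with groups apart, against 8.24% of all tested genes. The median log2 difference over all 7, Igkc included, was 1.33. Mast cell and basophil markers (4 of 8 listed) stood at 20.3 to 35.6 FPKM in wild type and 64.2 to 112 FPKM in KO, where Gzmb and Fcer1a were higher by value and Cpa3 and Mcpt8 lower. Markers of lymphoid primed and multipotent progenitors (8 of 8) stood at 65.3 to 78.9 and 150 to 155 FPKM. Those of monocytes, macrophages and dendritic cells (8 of 12) stood at 699 to 740 and 850 to 899 FPKM, and those of T and NK cells (5 of 11) at 191 to 233 and 310 to 324 FPKM. By value, 9 of 9 tested erythroid, 5 of 5 eosinophil, 8 of 11 neutrophil and 7 of 7 monocyte, macrophage and dendritic markers were higher in KO, as were 3 of 4 for lymphoid primed and multipotent progenitors and 3 of 4 for T and NK cells. Summed megakaryocyte markers (10 of 10) overlapped between groups, at 393 to 480 FPKM in wild type and 452 to 484 FPKM in KO. The single genes did not move together. Of 9 tested, 4 were higher by value in KO, with log2 differences from -1.84 to 0.78. The groups were apart and higher for 3, against 8.24% of all tested genes, and apart and lower for 1, against 6.99%. The smallest limma adjusted p was 0.059.

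Per length, the 39 genes spanned a wide range of levels. Cox8a, the small subunit 8 of cytochrome c oxidase, was highest with a wild-type mean of 816 FPKM ± 23.0 (SD, n = 3), followed by Cox6a1 (506 ± 31.2), Atp5a1 (334 ± 14.7), Cox4i1 (303 ± 2.80), Atp5b (265 ± 13.7) and Cox7a2l (259 ± 24.8). Atp5b and Cox7a2l overlapped between libraries, and the others in that order did not overlap with their neighbours. In all, 15 of the 39 ranked among the 1000 genes of highest mean. At the lower end stood Atp5j2 (8.09 ± 0.925), Atp5o (6.29 ± 0.271), Cox4i2 (5.82 ± 4.08), Cox6c (4.40 ± 0.821) and Atp5l (2.72 ± 0.593). Atp5k, the e subunit of the synthase, was the 1 untested gene, with 0.270, 0.444 and 2.40 FPKM in the wild-type libraries and 0.947, 1.46 and 0 FPKM in KO, on 0 to 28 reads.

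**Figure D3:**
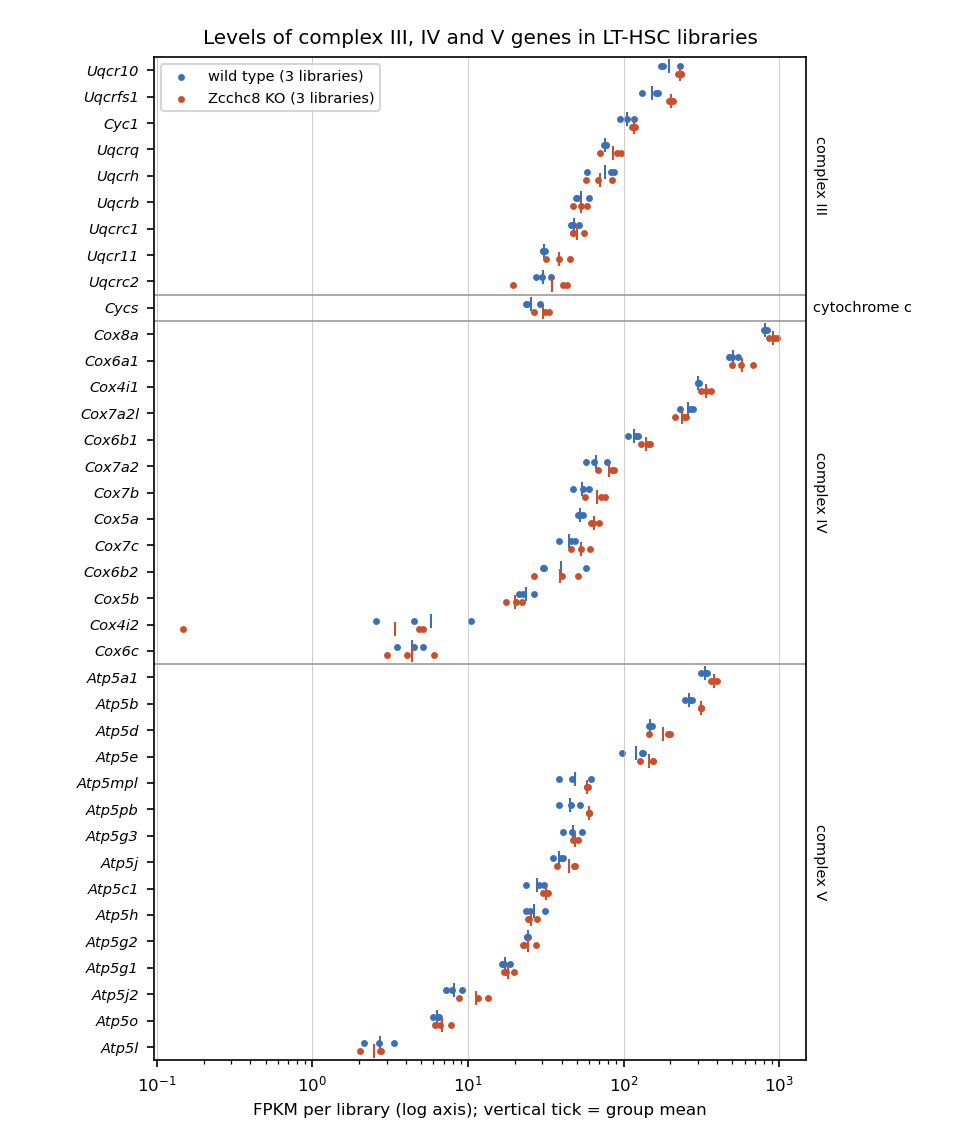
FPKM of the 38 tested genes in each of the 6 libraries on a log axis, by complex and ordered by the mean over the 6 libraries. Ticks mark group means. Levels run from 2.72 FPKM for Atp5l to 816 FPKM for Cox8a in wild type, and the outlying point of Cox4i2 is KO library 1.

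In complex III, the core subunits were all 4 higher by value. Uqcrfs1, the Rieske iron-sulphur protein that takes the first electron from ubiquinol (ENSMUSG00000038462.3, GRCm38 chr13:30540308-30545362, minus strand), stood at 161, 132 and 166 FPKM in the wild-type libraries and 196, 207 and 201 FPKM in KO. Every KO library was above every wild-type library, and the KO values were close together. The log2 difference was 0.40 with a 95% interval of 0.15 to 0.65 (limma adjusted p = 0.285), the smallest p of the 38. Cyc1, the cytochrome c1 that passes the electron on, stood at 117, 105 and 95.4 FPKM in the wild-type libraries and 114, 119 and 117 FPKM in KO, and the groups overlapped. The core proteins Uqcrc1 (48.3 and 50.01 FPKM, group means) and Uqcrc2 (30.6 and 34.5 FPKM) differed by 0.05 and 0.09 on the log2 scale, and both signs turned without KO library 1 (-0.03 and -0.06). Uqcrc2 in KO library 2 was at 19.4 FPKM, below all 5 other libraries, while KO libraries 1 and 3 were at 40.7 and 43.3 FPKM, above all of wild type. Its difference was 0.45 without KO library 2 and -0.11 without KO library 3.

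Among the 5 supernumerary subunits of complex III, 3 were higher by value. Uqcr10 stood at 173, 180 and 231 FPKM in the wild-type libraries and 224, 235 and 235 FPKM in KO. Wild-type library 3 reached the KO range, so the groups overlapped (log2 difference 0.26, limma adjusted p = 0.557). Uqcr11 stood at 31.2, 30.5 and 30.5 FPKM in the wild-type libraries and 31.8, 45.6 and 38.6 FPKM in KO. The groups did not overlap, though KO library 1 lay just above wild type, and the adjusted p was 0.623. Uqcrh, the hinge protein near the cytochrome c1 head, stood at 58.2, 86.7 and 83.2 FPKM in the wild-type libraries and 57.8, 84.02 and 68.6 FPKM in KO. Uqcrb stood at 50.3, 60.2 and 49.3 FPKM in the wild-type libraries and 53.3, 47.4 and 58.2 FPKM in KO, and both of these genes overlapped widely. Uqcrq, the remaining subunit, had means of 76.3 and 85.7 FPKM.

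Cycs, the somatic cytochrome c that carries electrons between complexes III and IV, stood at 23.6, 23.9 and 29.0 FPKM in the wild-type libraries and 32.9, 31.2 and 26.7 FPKM in KO. Wild-type library 3 and KO library 3 crossed, and the log2 difference was 0.24 with an interval of -0.15 to 0.63 (limma adjusted p = 0.717).

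In complex IV, 8 of the 10 ubiquitous subunits were higher by value, with a median log2 difference of 0.22. Cox8a (ENSMUSG00000035885.5, GRCm38 chr19:7215153-7217616, minus strand) stood at 840, 815 and 794 FPKM in the wild-type libraries and 854, 922 and 965 FPKM in KO. The groups did not overlap, and the difference of 0.16 had an interval of 0.01 to 0.31 (limma adjusted p = 0.5). Cox6b1, a subunit on the side of the intermembrane space (ENSMUSG00000036751.7, GRCm38 chr7:30616861-30626151, minus strand), stood at 107, 123 and 120.1 FPKM in the wild-type libraries and 144, 129 and 148 FPKM in KO. Its groups were apart by a small margin between wild-type library 2 and KO library 2 (difference 0.26, limma adjusted p = 0.511). Cox5a, a subunit on the matrix side (ENSMUSG00000000088.7, GRCm38 chr9:57521274-57532426, plus strand), stood at 55.2, 50.6 and 52.3 FPKM in the wild-type libraries and 69.6, 63.3 and 61.4 FPKM in KO. All KO values were higher (difference 0.29, limma adjusted p = 0.532). Cox4i1, the common form of the largest nuclear subunit, stood at 306, 301 and 303 FPKM in the wild-type libraries and 315, 339 and 364 FPKM in KO, apart as well, with a limma adjusted p of 0.593.

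The other ubiquitous subunits of complex IV overlapped between groups. Cox6a1 stood at 497, 540.1 and 479 FPKM in the wild-type libraries and 677, 571 and 495 FPKM in KO. Cox7b stood at 47.3, 60.4 and 54.8 FPKM in the wild-type libraries and 75.7, 56.7 and 71.2 FPKM in KO, the largest log2 difference of the complex in the higher direction, 0.32 with an interval of -0.04 to 0.68. In both genes 1 KO library fell within the wild-type range. Cox7a2 and Cox7c had means of 66.9 and 44.5 FPKM in the wild-type libraries and 80.2 and 53.4 FPKM in KO. Cox5b, the zinc-binding subunit, was lower by value, at 21.4, 22.5 and 26.6 FPKM in the wild-type libraries and 22.3, 20.2 and 17.5 FPKM in KO (difference -0.22, interval -0.64 to 0.19). Cox6c had means of 4.40 and 4.38 FPKM.

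Of the isoforms known from other tissues, Cox4i2 and Cox6b2 were listed. Cox4i2, the alternative form of subunit 4 known from lung and from low oxygen, stood at 4.50, 2.57 and 10.4 FPKM in the wild-type libraries and 0.148, 4.82 and 5.18 FPKM in KO. The value of KO library 1 rests on 3 reads, and the interval of the log2 difference ran from -2.36 to 0.74. Cox6b2, known from testis, stood at 57.0, 30.9 and 30.3 FPKM in the wild-type libraries and 26.7, 40.0 and 50.7 FPKM in KO, with replicates of a group differing more than the group means. Cox7a2l, a factor that joins complexes III and IV in supercomplexes, stood at 278, 267 and 231 FPKM in the wild-type libraries and 251, 243 and 215 FPKM in KO. It was among the 9 tested genes that were lower by value, with overlapping groups, a log2 difference of -0.13 and an interval of -0.36 to 0.11.

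In complex V, all 5 genes of the F1 head and central stalk were higher by value in KO, with log2 differences of 0.19 to 0.28. Atp5b, the catalytic beta subunit (ENSMUSG00000025393.12, GRCm38 chr10:128083273-128090391, plus strand), stood at 250, 267 and 277 FPKM in the wild-type libraries and 315, 315 and 314 FPKM in KO. The KO libraries lay above all wild-type ones and within a coefficient of variation of 0.237%, against 5.19% in wild type (difference 0.25, interval 0.07 to 0.43, limma adjusted p = 0.355). Atp5a1, the alpha subunit that alternates with beta in the head (ENSMUSG00000025428.15), stood at 340, 345 and 317 FPKM in the wild-type libraries and 401, 380.2 and 365 FPKM in KO. Its groups did not overlap either (difference 0.19, limma adjusted p = 0.496). Atp5d, the delta subunit of the rotor, stood at 152, 148 and 147 FPKM in the wild-type libraries and 192, 145 and 199 FPKM in KO, so that KO library 2 lay below all of wild type. Atp5c1 (27.6 and 31.8 FPKM) and Atp5e (121 and 146 FPKM), the gamma and epsilon subunits of the same stalk, overlapped between groups.

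The 3 genes for the c ring, which encode the same mature protein behind different import sequences, differed little between groups. Atp5g1 stood at 18.6, 16.5 and 17.0 FPKM in the wild-type libraries and 17.0, 19.9 and 17.5 FPKM in KO. Atp5g2 stood at 23.9, 24.1 and 24.5 FPKM in the wild-type libraries and 27.2, 22.9 and 22.5 FPKM in KO. Atp5g3 stood at 40.8, 54.5 and 46.75 FPKM in the wild-type libraries and 50.7, 48.0 and 47.0 FPKM in KO. Their log2 differences were 0.06, 0.00 and 0.05, with intervals reaching from -0.38 to 0.47 over the 3 genes, and whether they differ from the F1 genes was not tested. The sign of each changed when single libraries were left out.

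Of the stalk and membrane subunits of the synthase, 5 of 7 tested were higher by value. Atp5pb, the b subunit of the peripheral stalk (ENSMUSG00000000563.17, GRCm38 chr3:105942698-105960099, minus strand), stood at 52.4, 38.5 and 45.9 FPKM in the wild-type libraries and 59.97, 59.91 and 59.72 FPKM in KO. The groups were apart, and the coefficient of variation was 0.217% in KO and 15.3% in wild type (difference 0.40, interval 0.06 to 0.73, limma adjusted p = 0.473). Atp5j2, the f subunit, stood at 7.27, 9.09 and 7.92 FPKM in the wild-type libraries and 13.4, 8.82 and 11.6 FPKM in KO, the largest log2 difference of the 38 in the higher direction at 0.42, with an interval of -0.13 to 0.98. Atp5mpl, a small proteolipid of the complex, had 3 KO values within 0.875% (coefficient of variation) and 3 wild-type values that spread by 24.0%. Atp5j, the coupling factor of the stalk, had means of 38.6 and 44.6 FPKM. Atp5h, the d subunit of the stalk, stood at 23.5, 31.3 and 25.1 FPKM in the wild-type libraries and 24.8, 24.2 and 27.8 FPKM in KO. Atp5l, the g subunit, stood at 2.14, 3.33 and 2.68 FPKM in the wild-type libraries and 2.71, 2.78 and 2.03 FPKM in KO, and both overlapped widely. The close KO triplets of Atp5b, Atp5pb and Atp5mpl were picked out after their values were seen, and over the 39 genes the median coefficient of variation was 11.5% in wild type and 10.8% in KO.

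Some members, among them Atp5o and Atp5l of the lower end, have processed pseudogenes, copies of their messenger RNA elsewhere in the genome. Some of these copies had higher FPKM than the members themselves. By sequence, 23 of the 39 have at least 1 annotated pseudogene copy with 85% identity over 60% of the coding sequence, 87 copies in all, and 8 copies of 6 members were listed. For each of the 6 the listed copies summed to more FPKM than the member itself in wild type. The pairs Atp5h with Gm10250 and Atp5o with Gm5436 show how alike they are. The first 150 coding bases are given 5′ to 3′, with capitals at the bases where parent and copy differ.
Atp5h: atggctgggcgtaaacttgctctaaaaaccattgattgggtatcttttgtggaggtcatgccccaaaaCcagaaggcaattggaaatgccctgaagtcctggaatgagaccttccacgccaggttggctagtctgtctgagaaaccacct
Gm10250: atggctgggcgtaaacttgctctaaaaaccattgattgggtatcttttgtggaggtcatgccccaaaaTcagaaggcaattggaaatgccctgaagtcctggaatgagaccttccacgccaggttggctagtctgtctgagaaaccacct
Atp5o: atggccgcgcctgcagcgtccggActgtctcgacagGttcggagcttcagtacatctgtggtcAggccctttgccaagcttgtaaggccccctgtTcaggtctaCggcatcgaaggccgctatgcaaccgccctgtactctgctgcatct
Gm5436: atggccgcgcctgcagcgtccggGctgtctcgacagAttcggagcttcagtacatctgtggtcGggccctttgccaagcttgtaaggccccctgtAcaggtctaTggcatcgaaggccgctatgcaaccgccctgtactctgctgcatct

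Counted from 1 at the first coding base, with the parent's base first, the Atp5h pair differs in this stretch by C69T alone. Over the 486 coding bases of Atp5h the longest identical run was 239 bases. The Atp5o pair differs by A24G, G37A, A64G, T96A and C105T in the same stretch, and its longest identical run in 642 coding bases was 114. In the parents, exon junctions follow coding base 122 of Atp5h and coding bases 36 and 87 of Atp5o within the stretch, while each copy is a single annotated exon. Bowtie2, the aligner named in the submitters' processing notes, does not split reads over introns, and how reads with several matches were counted is not given in the sources used here. Which locus the reads of such a pair came from cannot be told apart in these values.

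Gm10250 (GRCm38 chr15:5120654-5121135, minus strand) stood at 1202, 1267 and 1366 FPKM in the wild-type libraries and 1321, 1503 and 1558 FPKM in KO, where Atp5h had a wild-type mean of 26.6 FPKM. The copy was thus 48.0-fold above its parent in FPKM and 15.8-fold in reads. Gm5436 (GRCm38 chr12:84258331-84258973, minus strand) stood at 728, 680.3 and 691 FPKM in the wild-type libraries and 795, 715 and 807 FPKM in KO. Its parent Atp5o, the oligomycin sensitivity protein at the top of the stalk, stood at 6.49, 6.403 and 5.98 FPKM in the wild-type libraries and 7.79, 6.10 and 6.62 FPKM in KO. The wild-type ratio of copy to parent was 111-fold in FPKM and 36.3-fold in reads. Gm10175 (GRCm38 chr7:23946646-23947290, minus strand) is identical to Atp5g2 over all 441 coding bases and had a wild-type mean of 414 FPKM, 17.1-fold above it. Atp5c1-ps (GRCm38 chr13:77669087-77670475, minus strand) was 7.65-fold above Atp5c1, with 239, 201 and 193 FPKM in the wild-type libraries and 280.1, 249.9 and 256 FPKM in KO. Its KO libraries all lay above wild type (limma adjusted p = 0.388). The copies of Cox7b and Atp5l, Gm13771 and Gm4853, exceeded their parents in FPKM, by 2.81-fold and 2.51-fold, but not in reads, since both copies are short.

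Adding the listed copies to their parents, an alternative chosen after the data were seen, turned the sign of Atp5h. Its log2 difference was then 0.18 in place of -0.05. With the copies, 8 members were higher and 0 lower at an unadjusted limma p under 0.05, and 30 were higher by value. Over all 11837 genes tested in that fit, 577 were higher (4.87%) and 513 lower at the same threshold. No adjusted p fell under 0.05, and the median difference stayed at 0.18.

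**Figure D4:**
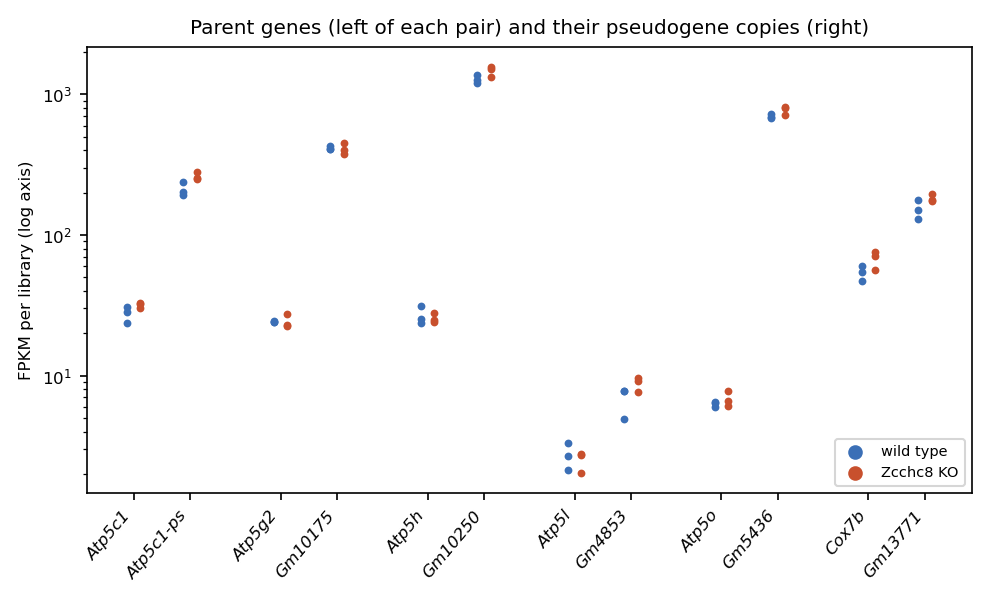
FPKM on a log axis for 6 members (left of each pair) and their most abundant listed pseudogene copy (right), 1 point per library. Gm10250 stands at 1202 to 1558 FPKM against 23.5 to 31.3 FPKM for Atp5h.

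The order of the low genes also depends on the gene length used. The deposited values give whole reads when multiplied by the length of all annotated exons together, which for the 39 genes was a median of 1.83 times the length of the principal transcript. It exceeded 3 times for 8 genes, 6 of them of complex V, and reached 11.8 times for Atp5l, with 6443 against 544 bases. Divided by principal transcript length, wild-type Atp5l would stand at 32.2 in place of 2.72 FPKM, Cox6c at 31.2 in place of 4.40 and Atp5e at 505 in place of 121. This takes all reads of a gene as coming from that transcript. Without Atp5k, the span from the lowest to the highest gene was 301-fold by the deposited values and 147-fold by the principal length. Both groups of a gene share the same length, but on the log2(FPKM + 1) scale the difference of a low gene depends on its level, and so on the length too. Exons of 12 members overlap those of another annotated gene, 11 of them on the opposite strand, and the strand setting of the counting is not given. The overlap exceeded 10% of the exon bases for Atp5j, with Gabpa, for Atp5o, Cox5a and Uqcrc2. These 4 values are uncertain by an amount that the share of bases does not give. For Atp5o the overlaps include 243 bases (12.3%) shared with a second protein-coding entry of the same symbol on the same strand.

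**Figure D5:**
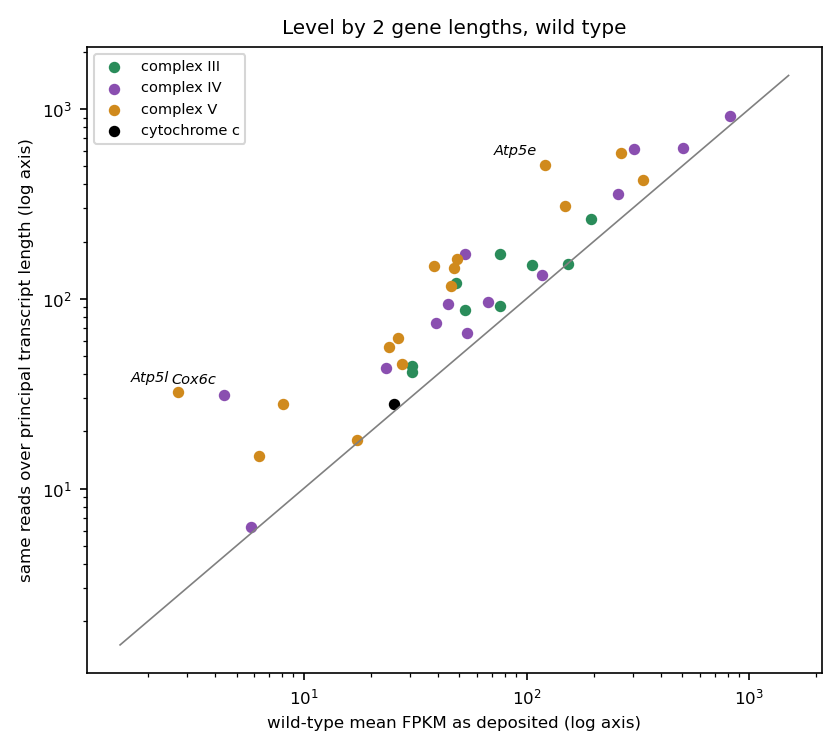
Wild-type mean FPKM as deposited against the level of the same reads over the principal transcript length, both on log axes, for the 38 tested genes; the line marks equality. Names mark the 3 genes with a ratio above 4, the largest being Atp5l at 11.8.

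Promoters of nuclear respiratory genes are known for sites of NRF1, of the ETS factor GABP and of YY1, and the windows of these genes were searched for 3 matching strings on both strands. RefSeq windows of 300 bases, 250 before and 50 after the start, were at hand for 30 members, 33 windows in all. The NRF1-type string, whose matches are the first capitals of Cox6a1 below, was in 24.2% of them and in 9.32% of the 13476 windows of listed genes. The ETS core CCGGAAG was in 30.3% against 16.5%, and the YY1-type string AANATGGC in 15.2% against 8.06%. At least 1 of the strings was found for 19 of the 30 genes. These are matches of letters, with no binding data, and no test was made; other spellings of the strings were also looked at before these were kept. The strings of Cox6a1 and of Cox6b1, a gene of high level and a gene with groups apart, are shown in the 250 bases before the start, 5′ to 3′ on the gene's strand, with the matches in capitals (GRCm38.p6 chr5:115348959-115349208 and chr7:30626115-30626364, both minus strand).
Cox6a1: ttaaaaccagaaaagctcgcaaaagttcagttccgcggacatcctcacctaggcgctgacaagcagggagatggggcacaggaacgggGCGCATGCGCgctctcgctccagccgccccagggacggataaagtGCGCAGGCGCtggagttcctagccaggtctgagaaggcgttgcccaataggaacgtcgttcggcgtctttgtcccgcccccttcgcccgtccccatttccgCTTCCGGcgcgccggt
Cox6b1: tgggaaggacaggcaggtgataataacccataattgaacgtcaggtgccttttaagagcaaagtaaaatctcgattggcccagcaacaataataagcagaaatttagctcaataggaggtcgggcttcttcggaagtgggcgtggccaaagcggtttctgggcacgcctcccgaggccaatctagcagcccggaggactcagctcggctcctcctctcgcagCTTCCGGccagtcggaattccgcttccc

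Of the factors that would bind such strings, Nrf1 had means of 5.22 and 6.32 FPKM in wild type and KO, Gabpa 4.99 and 5.92 FPKM, and none passed the test. Of 19 tested regulators of respiratory gene expression, 1 was higher and 3 were lower at an unadjusted limma p under 0.05, and 0 passed the adjusted test. Over all tested genes the shares at that unadjusted threshold were 4.87% higher and 4.33% lower. Yy1 stood at 3.91, 4.69 and 7.62 FPKM in the wild-type libraries and 9.52, 7.81 and 11.6 FPKM in KO (limma adjusted p = 0.496). Twnk, the helicase that unwinds mitochondrial DNA, stood at 18.6, 24.8 and 20.9 FPKM in the wild-type libraries and 8.85, 15.4 and 12.3 FPKM in KO, apart and lower (limma adjusted p = 0.34). Mterf1a and Mterf1b, the paralogous pair for the mitochondrial termination factor, were also lower by value, with means of 6.43 and 10.5 FPKM in the wild-type libraries and 3.52 and 5.20 FPKM in KO. Counting may split reads between the paralogs, so the pair is uncertain. Tfam, which packages mitochondrial DNA, had means of 21.1 and 24.9 FPKM.

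Genes that assemble the complexes did not share the members' direction throughout. Over all tested genes, 50.2% were higher by value and 4.87% were higher at an unadjusted limma p under 0.05. Of 6 tested genes for complex V assembly and regulation, 6 were higher by value and 2 at an unadjusted limma p under 0.05. Atpif1, the inhibitor that blocks reverse rotation of the synthase, stood at 219.9, 197 and 194 FPKM in the wild-type libraries and 256, 232 and 255 FPKM in KO (limma adjusted p = 0.385). Fmc1, an assembly factor of the F1 head, had means of 120 and 152 FPKM (limma adjusted p = 0.405). Of 24 for complex IV assembly, 12 were higher by value, 3 at an unadjusted p under 0.05, and the median difference was 0.03. Cox11, which helps to insert copper, stood at 9.22, 10.9 and 8.77 FPKM in the wild-type libraries and 21.4, 22.9 and 13.97 FPKM in KO (difference 0.92, limma adjusted p = 0.248). Cmc1 had means of 21.2 and 33.4 FPKM and Coa4 of 6.09 and 10.3 FPKM, both higher by value, while Cox18, which moves subunit 2 across the membrane, had 25.3 and 16.8 FPKM. Of 6 for complex III, 3 were higher by value and none reached an unadjusted p of 0.05. Uqcc1 was apart and lower by value, with means of 11.6 and 7.92 FPKM (limma adjusted p = 0.56). Uqcc2 was apart and higher by value, with means of 98.7 and 114 FPKM (limma adjusted p = 0.612). Hccs, the lyase that attaches haem to cytochrome c, had means of 10.2 and 15.05 FPKM (limma adjusted p = 0.509), and the other two genes of cytochrome c handling were lower by value.

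Among 17 carriers and cristae genes, 12 were higher by value, against 50.2% of all tested genes. At an unadjusted limma p under 0.05, 1 was higher, against 4.87%. This was Slc25a5, an adenine nucleotide carrier that exchanges the product of the synthase for ADP, at 313, 320 and 346 FPKM in the wild-type libraries and 417, 433 and 445 FPKM in KO. Its groups were well apart (difference 0.40, limma adjusted p = 0.116), while the sister carrier Slc25a4 had means of 140 and 137 FPKM. The other parts of the respiratory chain had positive medians as well. Of 37 complex I subunits 29 were higher by value, with a median log2 difference of 0.13, and of 4 complex II subunits 3 were, with a median of 0.19. Mitochondrial ribosomal proteins (48 of 77 higher, median 0.08) and cytosolic ribosomal proteins (51 of 76, median 0.05) lay nearer to 0. None of these lists held a gene that passed the adjusted test, and no difference between lists was tested.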

How the data were processed

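Polyadenylated RNA was measured in 6 LT-HSC libraries, 3 per genotype, with groups and replicate numbers taken from the sample titles. The cDNA was amplified before a transposase library kit, per the labels' protocols. The authors deposited FPKM by gene symbol, 1 table with 14986 genes and 6 library columns. Per the submitters' processing notes the build is mm10 and fastp, Bowtie2 and featureCounts were used, without versions. No other sample columns were present.

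Genes averaging 1 FPKM or more were tested (11837, among them 38 of 39 members) as log2(FPKM + 1), a scale that shrinks differences of low genes. The 2-group test, KO against wild type, used limma 3.58.1 (R 4.3.3), lmFit and eBayes with a variance trend. It was two-sided, and Benjamini-Hochberg adjustment ran over all tested genes, threshold 0.05. Intervals are limma's 95% intervals. Every p of a gene is from limma unless called exact. The procedure was tested on simulated data with changes larger than those of any member. That does not show how often it would find changes of the members' sizes.

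Symbols were matched to GENCODE M21 (GRCm38) for 14873 genes, in part through RefSeq synonyms. FPKM times exon length gave whole reads within 0.05 for 98.0% of values below 100 reads, and within 0.0011 for all members. Reads carry no molecular identifiers, so they overstate independent molecules. The reads used for limma-voom rest on this recovery. Copies were found with blastn 2.17.0 and promoter windows come from RefSeq (GRCm38.p6).

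The members and lists were chosen with earlier results of these data known. Values in every library are given for members with an unadjusted p under 0.05, the 3 highest and the 2 largest and 2 smallest differences of each complex, the c ring genes, Cox7a2l, Cycs and tissue isoforms; for other lists up to 4 genes of smallest p, and some comparison genes named besides. Alternatives changed the pseudocount, filter, scaling, variance model, GC content and length, pseudogenes, replicate block and libraries used. Plots used Python 3.11.15 and matplotlib 3.10.9. The levels of some single marker genes are not reported here.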

Additional observations from a re-analysis of the deposited data

How the results depend on the processing

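Under 20 alternatives, 19 planned and 1 added after the data were seen, members with an adjusted p under 0.05 numbered 0. Genes called over the transcriptome, 27 as reported, numbered 8 without a variance trend, 8 with limma-voom and 11 to 19 with a library left out. The 7 members higher at an unadjusted p under 0.05 became 4 with quantile scaling, 3 with TPM and 0 without a variance trend. They numbered 4 with limma-voom, 4 with the GC and length correction and 4 to 6 with a library left out (4 without wild-type library 3 or KO library 3). Of all tested genes, 4.42%, 3.73% and 3.99% were higher at that threshold with quantile scaling, TPM and no variance trend. The share was 4.38% with limma-voom, 4.90% with the GC and length correction and 4.13% to 4.74% with a library left out. The median difference was 0.16 without a filter, 0.19 at a mean of at least 5 FPKM, 0.12 with quantile scaling, 0.13 with TPM, 0.16 with limma-voom and 0.14 to 0.19 with a library left out. For all tested genes the median was -0.014 without a filter, 0.020 at 5 FPKM, 0.0063 with quantile scaling and -0.034 with TPM. It was -0.0068 with limma-voom and -0.0076 to 0.011 with a library left out. Members with groups apart and higher, 9 as reported, numbered 6 with quantile scaling and 7 with TPM, against 7.81% and 6.74% of all tested genes. They numbered 10 with the GC and length correction and 10 with copies added, against 8.56% and 8.25%. Members with groups apart numbered 12 to 15 higher and 0 to 2 lower when a library was left out, which leaves fewer values to overlap. In those fits 12.7% to 13.7% of all tested genes were apart and higher, and the share apart and lower was not computed. Uqcrfs1 and Atp5b kept an unadjusted p under 0.05 in 19 of 20 alternatives each. Of 538 values of the members whose library values were given by rule, 22 changed sign. Cox6b2 went to -0.0032 with quantile scaling, -0.028 with TPM, -0.032 with limma-voom and -0.039 with the GC and length correction. Atp5g2 went to 0.0050 with limma-voom, and Atp5h to 0.18 with copies added. With a library left out, Cox6b2 ran from -0.20 to 0.30, Atp5g1 from -0.010 to 0.10, Atp5g2 from -0.088 to 0.042, Atp5g3 from -0.054 to 0.15, Atp5h from -0.13 to 0.069, Atp5l from -0.20 to 0.035, Uqcrb from -0.074 to 0.084 and Uqcrh from -0.29 to 0.019. Of the other members, Uqcrc1 ran from -0.03 to 0.10, Uqcrc2 from -0.11 to 0.45 and Cox6c from -0.25 to 0.16 with a library left out, and Cox6c was 0.0074 with quantile scaling. The cause was not tested.

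The labels do not state whether replicate numbers pair the samples. Deviations of same-numbered libraries correlated at 0.02, 0.01 and 0.00 over genes, and those of differently numbered libraries at -0.02 to 0.01. Correlations this near to 0 cannot show whether the samples were paired. With the replicate block 11 genes were called and 5 members were higher at an unadjusted p under 0.05, against 4.50% of all tested genes. With the block and the GC and length correction these were 7 and 4, against 4.55%, and Cox6b2 was at -0.039. Depth limits Cox4i2, which rests on 3 reads in a library. Intervals wider than 0.5 on each side were found for 7 members, among them Uqcrc2 and Cox6b2 with mean wild-type levels of 30.6 and 39.4 FPKM.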
